A study of Mus musculus with 18 samples.

Results

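The levels of 9 receptor genes of the chemokine system were followed through 3 kinds of region in polycystic mouse kidney: Ccr1, Ccr7, Cx3cr1, Cxcr3, Cxcr4 and Cxcr6, which encode signalling receptors, and Ackr1, Ackr2 and Ackr3, which encode atypical (decoy) receptors. They were taken by name from a table of 32285 genes, so the 9 were not chosen by a threshold on their values. Of the 9, 8 had at least 1 count, and 7 passed the filter on low counts and could be tested. Ccr7 and Ackr1 did not pass it.

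The tissue came from frozen kidneys of male C57BL/6 mice with the genotype Pkd1 KO, the line iKspCre-Pkd1del. In these mice a Cre recombinase that is active in kidney tissue after tamoxifen removes exons 2 to 11 of Pkd1. Tamoxifen was given by mouth at 12.5 mg/kg on postnatal days 18 and 19, and kidneys were taken while cystic disease was mild. All 3 region types come from mice of this genotype and treatment, so nothing here compares them with a mouse whose Pkd1 is intact. Which cells of the dissected areas carry the deletion was not measured. Small areas were dissected from sections of 3 kidneys as non-cystic tissue, as F4/80-low cystic tissue or as F4/80-high cystic tissue. F4/80, the protein of Adgre1, marks mouse macrophages, so the macrophage content was part of how the regions were picked and is not a finding. Each kidney gave 2 libraries per region type, 18 in all. The labels number the kidneys without saying whether each is a separate mouse, and they give the age as 269 for kidneys 1 and 3 and 297 for kidney 2, with no unit.

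Chemokines are small secreted proteins that direct the movement of cells, chiefly leukocytes. Their classical receptors span the membrane and signal through inhibitory G proteins, which drive polarisation and migration of the cell up a gradient. Atypical receptors bind chemokines without that G protein signal and take up, transport or clear them, which shapes the gradient. In the kidney, Cx3cr1 and Ccr1 are known chiefly from macrophages, monocytes and dendritic cells, Cxcr3 and Cxcr6 from T and NK cells, and Ccr7 from dendritic cells and T cells that move to lymph nodes.

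Levels are given as CPM, read counts per 1e+06 counts of the library, scaled with trimmed mean of M values factors. A mean ± SD is over the 3 kidney sums of a region type, each of which adds up the 2 libraries of 1 kidney. Fold changes are log2 values, each with its standard error (SE) as fitted over the 3 kidneys. A gene was called, or is said to have risen or fallen, when its adjusted p in edgeR's quasi-likelihood test was below 0.05, with Benjamini-Hochberg adjustment over all 16034 tested genes. In such bulk tissue, fewer cells of a type and less RNA per cell cannot be told apart.

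Library totals were 5841975 to 8662288 counts in F4/80-high, 7186518 to 9188813 in F4/80-low and 5366651 to 9002054 in non-cystic regions. At these depths most of the receptors were read from few counts. Mitochondrial genes took 1.49 to 4.06% of a library's counts in F4/80-high, 7.71 to 11.2% in F4/80-low and 10.6 to 15.4% in non-cystic regions. The summed level of 8 proximal tubule markers was 290.2 to 8614 CPM, 22440 to 55570 CPM and 22700 to 49190 CPM in the same order, with none of the 8 at 0. Both were lowest where the receptors below were highest, and their part in the receptor differences was not tested.

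Of the 9 genes, 4 (Ccr1, Cx3cr1, Cxcr3 and Cxcr6) rose in F4/80-high regions against non-cystic regions, and the same 4 rose there against F4/80-low regions. In F4/80-low against non-cystic regions, Cx3cr1 alone was called. No receptor of the 9 was called lower in any comparison. Over all tested genes, 19.7% were called higher and 19.5% lower in F4/80-high against non-cystic regions, 10.3% higher and 14.0% lower in F4/80-high against F4/80-low regions, and 1.51% higher and 0.0249% lower in F4/80-low against non-cystic regions. The median log2 fold change of the 7 tested receptors was 2.99, 1.94 and 1.18 in these 3 comparisons, beside 0.04, 0.04 and 0.00 over all tested genes. A gene could pass the filter through the region type in which it is high, so these counts and medians describe the 7 and are no test of them. The 3 comparisons share their samples, so a gene's values in them are set side by side and are not independent. Where the libraries of a receptor are said below not to overlap, this describes its range only. The share of all tested genes without overlap was not counted.

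**Figure D1:**
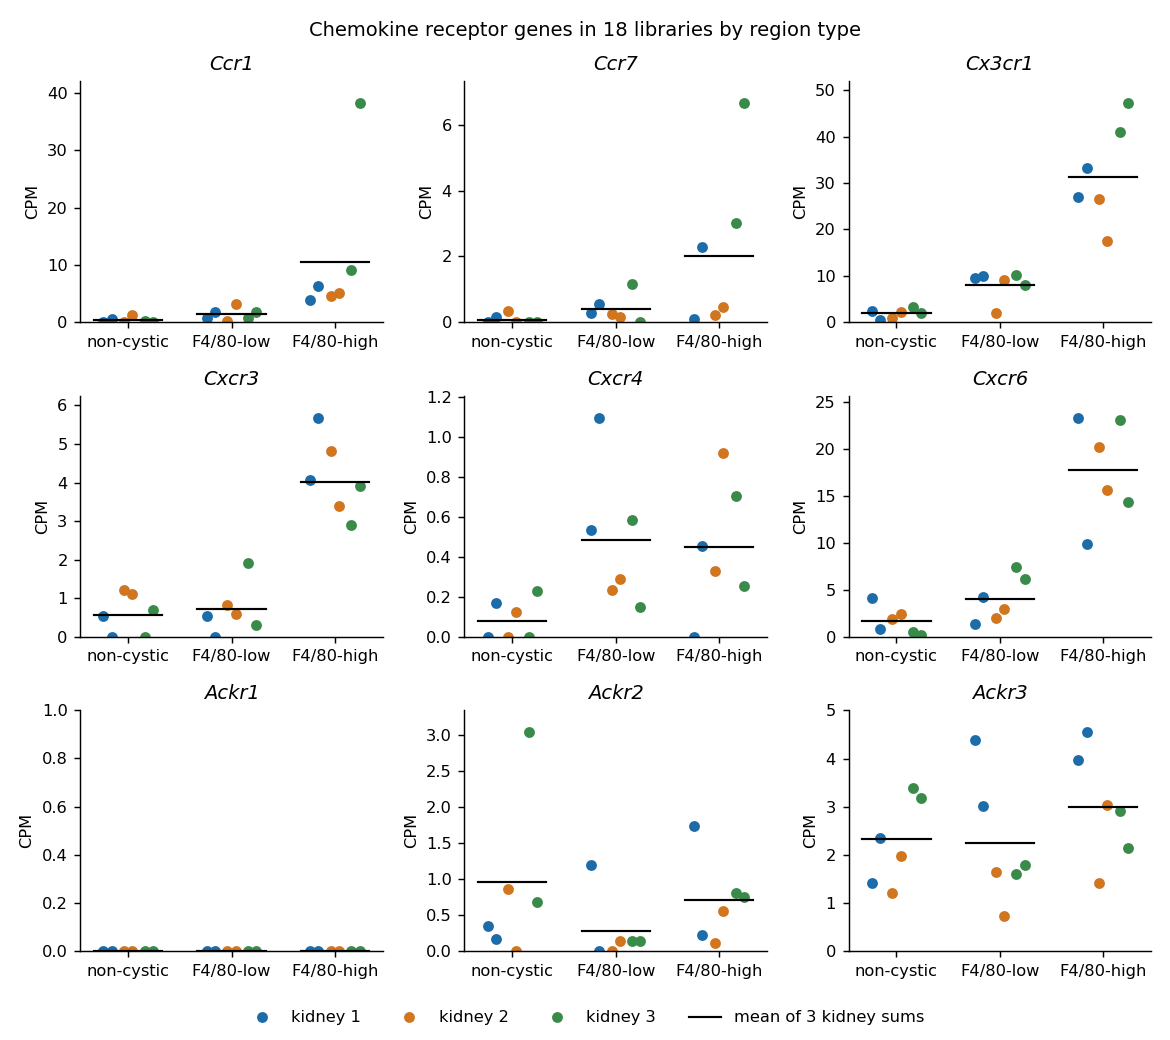
Level of each of the 9 receptor genes in CPM (vertical axis, linear, a separate range per panel) in the 18 libraries by region type. Points are libraries coloured by kidney and black lines are means of the 3 kidney sums. For Ccr1, Cx3cr1, Cxcr3 and Cxcr6 every F4/80-high library lies above every non-cystic and F4/80-low library, while Ackr1 is at 0 throughout. The share of all tested genes that separate in this way was not counted.

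Cx3cr1 encodes the receptor for fractalkine, a chemokine that also exists as a membrane-bound adhesion protein, and it marks resident macrophages of the kidney. It lies on chromosome 9 from 119901616 to 120069879 on the minus strand in the GENCODE M21 annotation of GRCm38, with 4505 exon bases. Its level in the 6 non-cystic libraries was 0.503 CPM at the lowest, 2.13 at the median and 3.15 at the highest. In the 6 F4/80-low libraries the lowest, median and highest levels of Cx3cr1 were 1.89, 9.37 and 10.1 CPM. The 6 F4/80-high libraries had 17.5, 30.1 and 47.3 CPM. The F4/80-high libraries lay above all others, and of the F4/80-low libraries 1, from kidney 2, lay within the non-cystic range. The kidney sums stood in the same order in each kidney, with 1.50, 9.86 and 29.2 CPM in kidney 1, 1.68, 5.19 and 21.4 CPM in kidney 2, and 2.80, 9.18 and 43.3 CPM in kidney 3 for non-cystic, F4/80-low and F4/80-high regions.

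Cx3cr1 was the only one of the 9 to be called in every comparison. It rose by 2.01 ± 0.26 (SE, 3 kidneys; adjusted p = 0.00732) in F4/80-low against non-cystic regions. Against non-cystic regions the F4/80-high regions had 3.94 ± 0.26 more (adjusted p = 1.79e-05). The step from F4/80-low to F4/80-high regions was 1.94 ± 0.23 (adjusted p = 0.00135). The call in F4/80-low regions was lost without the library F4/80-low kidney 2 replicate 2 (1.69, adjusted p = 0.145) and without kidney 1 (1.66, adjusted p = 0.119). It was also lost with the voom fit of the 18 libraries and with the libraries labelled 1 or 2 alone. The other Cx3cr1 calls held under all 34 alternatives. Its annotated span is long and holds other genes, but its exons share bases with only 1 of them, Gm33858 on the opposite strand, over 78 bases or 1.73% of the Cx3cr1 exons.

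Ccr1 encodes a receptor of monocytes, macrophages and neutrophils that binds several inflammatory CC chemokines. It lies on chromosome 9 from 123962124 to 123968692 on the minus strand. In non-cystic regions Ccr1 had no count in 3 of the 6 libraries, a median of 0.0584 CPM and a highest level of 1.23 CPM. In F4/80-low regions the lowest, median and highest Ccr1 levels were 0.236, 1.29 and 3.20 CPM. In F4/80-high regions they were 3.88, 5.71 and 38.3 CPM. All F4/80-high libraries were above all others, whereas F4/80-low and non-cystic libraries overlapped. The highest value, 304 counts in F4/80-high kidney 3 replicate 2, stood apart from the next highest library at 9.13 CPM. The 3 kidney sums of Ccr1 in F4/80-high regions averaged 10.5 ± 9.78 CPM (SD, n = 3).

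Ccr1 rose by 4.59 ± 0.81 (SE, 3 kidneys; adjusted p = 0.0027) in F4/80-high against non-cystic regions. Its difference between F4/80-high and F4/80-low regions was 2.67 ± 0.68 (adjusted p = 0.0237). Between F4/80-low and non-cystic regions it was 1.92 ± 0.83 and did not pass (adjusted p = 0.419). Without the library that stood apart, the first 2 values were 4.12 (adjusted p = 0.00196) and 2.18 (adjusted p = 0.0257). The call against F4/80-low regions was lost without F4/80-low kidney 2 replicate 1 (2.36, adjusted p = 0.0673) and without kidney 1 (3.05, adjusted p = 0.104). It was also lost with the libraries labelled 2 alone.

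Cxcr6 encodes the receptor for CXCL16 and is known from tissue-resident T cells, NK cells and NKT cells. It lies on chromosome 9 from 123806475 to 123811760 on the plus strand. Its lowest, median and highest levels were 0.227, 1.37 and 4.09 CPM in non-cystic libraries. In F4/80-low libraries Cxcr6 had 1.33, 3.58 and 7.45 CPM. In F4/80-high libraries it had 9.89, 17.9 and 23.4 CPM. The F4/80-high libraries stood clear of the others, which overlapped each other. For Cxcr6 the kidney sums of F4/80-high regions were close together, 16.6, 17.6 and 19.0 CPM, while those of F4/80-low regions were 2.79, 2.43 and 6.92 CPM.

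Cxcr6 rose by 3.35 ± 0.64 (SE, 3 kidneys; adjusted p = 0.00485) in F4/80-high against non-cystic regions, a call that held under all 34 alternatives. Against F4/80-low regions it was higher by 2.17 ± 0.59 (adjusted p = 0.0333). This last call was lost in 7 of the 34 alternatives, with adjusted p between 0.052 and 0.175. These included leaving out kidney 1 (0.151), kidney 2 (0.175), non-cystic kidney 1 replicate 2 (0.056) or F4/80-high kidney 1 replicate 1 (0.0531). Cxcr6 had 1.18 ± 0.66 between F4/80-low and non-cystic regions and did not pass (adjusted p = 0.587). The gene lies within Fyco1, which is read from the other strand, and the libraries do not mark strand. No exon bases are shared between them, and Fyco1 had 34.1 ± 6.13, 37.1 ± 5.41 and 36.6 ± 4.28 CPM (SD, n = 3) in the 3 region types and was not called in any comparison (log2 fold changes 0.13, 0.11 and -0.02).

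Cxcr3 encodes the receptor for the interferon-induced chemokines CXCL9 and CXCL10 and is known from activated T and NK cells. It lies on the X chromosome from 101731535 to 101734269 on the minus strand. Non-cystic libraries had 0 to 1.21 CPM of Cxcr3 with a median of 0.608. F4/80-low libraries had 0 to 1.90 CPM with a median of 0.557. F4/80-high libraries had 2.91 to 5.69 CPM with a median of 3.99. The first 2 region types overlapped, and all 6 F4/80-high libraries were above both.

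Cxcr3 rose by 2.99 ± 0.68 (SE, 3 kidneys; adjusted p = 0.00683) in F4/80-high against non-cystic regions and by 2.59 ± 0.65 (adjusted p = 0.0194) against F4/80-low regions. Between F4/80-low and non-cystic regions the value was 0.40 ± 0.72 (adjusted p = 0.914), with 2 kidneys higher and 1 lower. Without kidney 1, neither F4/80-high comparison passed (2.45, adjusted p = 0.0682, and 1.94, adjusted p = 0.143). Without kidney 2, the second did not pass (2.61, adjusted p = 0.0606), nor did it with the libraries labelled 1 alone.

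The stretch upstream of the start site is shown for Ccr1 and Cxcr6, which rose together, and for Cxcr4, which stayed at few counts in every region type. Each is the 250 bases before the RefSeq start (GRCm38.p6), written 5′ to 3′ on the gene's strand, with letter matches in capitals. Ccr1 is at chr9:123968693-123968942 (minus strand), Cxcr6 at chr9:123806227-123806476 (plus strand) and Cxcr4 at chr1:128592300-128592549 (minus strand).
Ccr1: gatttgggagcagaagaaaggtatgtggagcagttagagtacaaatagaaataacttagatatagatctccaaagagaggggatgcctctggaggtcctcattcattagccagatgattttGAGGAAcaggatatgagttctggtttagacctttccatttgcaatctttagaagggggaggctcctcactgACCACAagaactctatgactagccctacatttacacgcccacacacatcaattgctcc
Cxcr6: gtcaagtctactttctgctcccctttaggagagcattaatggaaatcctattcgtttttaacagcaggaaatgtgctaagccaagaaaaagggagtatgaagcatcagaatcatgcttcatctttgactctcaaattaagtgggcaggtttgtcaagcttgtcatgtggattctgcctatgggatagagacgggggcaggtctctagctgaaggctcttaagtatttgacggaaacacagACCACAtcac
Cxcr4: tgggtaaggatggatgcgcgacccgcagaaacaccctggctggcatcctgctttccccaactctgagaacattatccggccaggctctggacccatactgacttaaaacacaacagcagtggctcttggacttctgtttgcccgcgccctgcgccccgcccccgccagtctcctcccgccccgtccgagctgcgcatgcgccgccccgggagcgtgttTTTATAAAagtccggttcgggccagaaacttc

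The capitals mark GAGGAA or TTCCTC, letters of sites bound by PU.1-type ETS factors, TGTGGT or ACCACA, letters of sites bound by RUNX factors, and TATAAA or TTTATA, letters of a TATA box, searched on both strands. Ccr1 held GAGGAA from 129 bases and ACCACA from 58 bases before the start, and Cxcr6 held ACCACA from 10 bases before it. Cxcr4 held TTTATA and TATAAA overlapping at 30 bases before its start. Windows were found for 8 of the 9 genes, and ACCACA was also in those of Cx3cr1 and Cxcr3, which are not printed because they overlap exons of these genes in GENCODE by 250 and 122 bases. The window of Ackr3, which was not called, also held the RUNX letters (TGTGGT, from 84 bases before the start) and a TATA match. Those of Cxcr4, Ackr1 and Ackr2 held no RUNX letters. The Ackr1 window, however, overlaps exons of that gene in GENCODE by 247 bases. Among 32841 promoter windows of this length, 14.0% held the RUNX letters, 23.3% the ETS letters and 12.4% the TATA letters. The windows of Ccr1, Cxcr6, Cx3cr1 and Cxcr3 held 1, 3, 4 and 3 CpG pairs, those of Ackr1, Ackr2, Ackr3 and Cxcr4 held 3, 2, 7 and 19, and the median over all windows was 6. Low counts of CpG were thus found in receptors that rose and in ones that did not. A match of letters is not a bound site, and its part in the levels was not tested.

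Ccr7 encodes the receptor for CCL19 and CCL21, which guides mature dendritic cells and naive T cells to lymph nodes. It lies on chromosome 11 from 99144196 to 99155077 on the minus strand. Non-cystic libraries held 3 Ccr7 counts in all, F4/80-low libraries 17 and F4/80-high libraries 111. Of the 111, 83 came from kidney 3, 21 from kidney 1 and 7 from kidney 2, and the F4/80-high libraries ran from 0.102 to 6.68 CPM across a median of 1.37, so they overlapped the F4/80-low range of 0 to 1.17 CPM. The ratio of F4/80-high to non-cystic regions was 24.4 (95% interval 8.15 to 120.3) and that of F4/80-low to non-cystic regions 4.96 (1.44 to 26.4). These exact intervals cover counting error only and take no account of the spread between kidneys. Without the filter, the fit gave 3.96 ± 1.03 (adjusted p = 0.00358) in F4/80-high against non-cystic regions and 1.90 ± 0.81 (adjusted p = 0.128) against F4/80-low regions. It gave 2.06 ± 1.09 (adjusted p = 0.716) in F4/80-low against non-cystic regions.

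Cxcr4 encodes the receptor for CXCL12, which holds blood cell precursors in the marrow and is carried by many leukocytes. It lies on chromosome 1 from 128588199 to 128592293 on the minus strand. All non-cystic libraries together held 3 counts, the F4/80-low libraries 21 and the F4/80-high libraries 26, and no library had more than 10. The ratio to non-cystic regions was 6.13 (95% counting interval 1.83 to 32.1) in F4/80-low regions and 5.73 (1.76 to 29.6) in F4/80-high regions. In the fit, Cxcr4 had 2.48 ± 1.01 (adjusted p = 0.371) and 2.41 ± 1.00 (adjusted p = 0.0831) in these 2 comparisons and passed in neither. Between the 2 cystic region types the fitted difference was -0.07 ± 0.81 (adjusted p = 0.961) and its sign turned under 7 of the 25 alternatives in which Cxcr4 could be tested.

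None of the 3 decoy receptors was called in any comparison. Ackr3, which takes up CXCL12 and is known from endothelium and stromal cells, had 2.32 ± 0.89, 2.24 ± 1.32 and 2.99 ± 1.02 CPM (SD, n = 3) in non-cystic, F4/80-low and F4/80-high regions. Its libraries ran from 1.21 to 3.39, from 0.728 to 4.39 and from 1.42 to 4.55 CPM, so the 3 region types overlapped. The difference was 0.32 ± 0.44 (adjusted p = 0.599) in F4/80-high against non-cystic regions, -0.16 ± 0.45 (adjusted p = 0.949) in F4/80-low against non-cystic regions and 0.48 ± 0.43 (adjusted p = 0.451) between the cystic region types. The sign of the first 2 depended on the alternative. Ackr3 lies on chromosome 1 from 90203980 to 90216751 on the plus strand.

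Ackr2 encodes a scavenger of inflammatory CC chemokines known from lymphatic endothelium. It had 40 counts over the F4/80-high libraries, 12 over the F4/80-low and 37 over the non-cystic libraries. Of the 37, 26 came from the single library non-cystic kidney 3 replicate 1, and of the 12, 9 came from F4/80-low kidney 1 replicate 1. The differences were -1.70 ± 0.98 (adjusted p = 0.590), -0.32 ± 0.86 (adjusted p = 0.799) and 1.38 ± 0.92 (adjusted p = 0.302) for the pairs low with non-cystic, high with non-cystic and high with low, and none passed. The sign of the middle one turned with scaling to total counts (0.26). Of the 5 lymphatic markers none was at 0 in any region type, and their sum was 5.36 to 16.6, 14.4 to 31.5 and 32.3 to 82.2 CPM. Of the 3 that could be tested, Pdpn rose (3.54) and Prox1 fell (-2.14) in F4/80-high against non-cystic regions.

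Ackr1, the Duffy antigen receptor of red cells and of small veins, was not detected. It had 0 counts in all 18 libraries, which allows up to 0.0792 CPM over the non-cystic, 0.0694 CPM over the F4/80-low and 0.0523 CPM over the F4/80-high libraries at a floor of 3 counts per region type. Its exons share 361 bases, 25.7%, with Cadm3 on the same strand, and reads there could not be assigned to 1 gene by a counter that leaves out ambiguous reads. Whether the authors' counting left them out is not given in the sources used here. None of the 5 venous endothelium markers (Selp, Sele, Vwf, Nr2f2 and Vcam1) was at 0 in any region type.

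**Figure D2:**
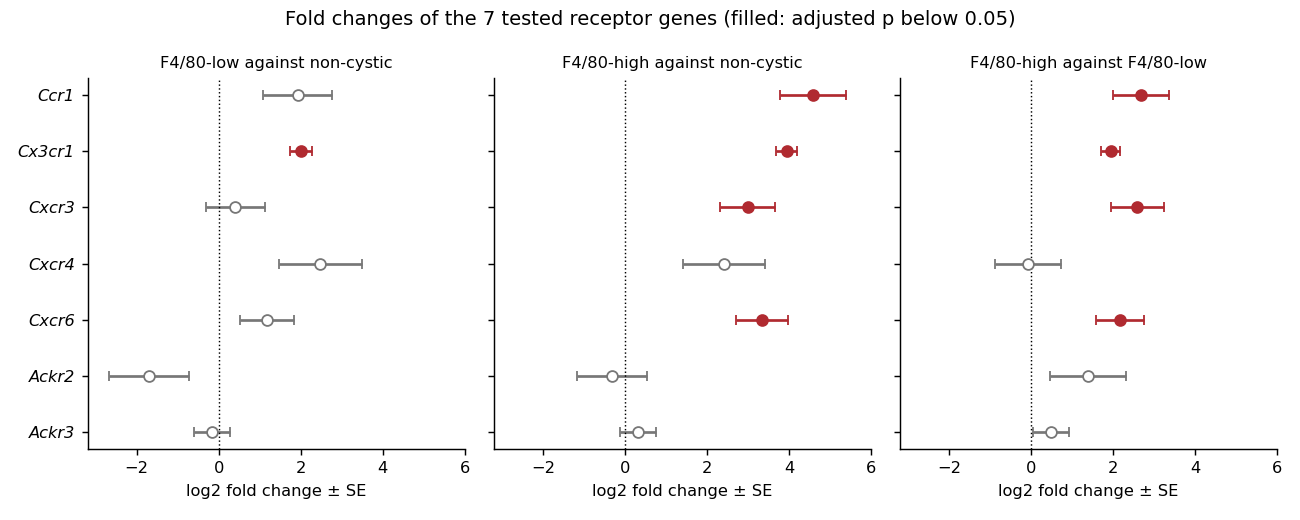
Log2 fold change (horizontal axis) with its standard error for the 7 tested receptor genes in the 3 comparisons. Filled points passed at an adjusted p below 0.05: Cx3cr1 in all 3 panels, and Ccr1, Cxcr3 and Cxcr6 in both F4/80-high comparisons. The points of Ackr3 lie near 0 in all 3 panels.

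Levels of different genes were compared per kilobase of exon. In F4/80-high regions the order of mean levels was Cxcr6 with 9.18 ± 0.62, Cx3cr1 with 6.95 ± 2.46, Ccr1 with 3.71 ± 3.45 and Cxcr3 with 2.32 ± 0.41 CPM per kb (SD, n = 3). Below them came Ccr7 with 1.02 ± 1.14, Ackr3 with 0.894 ± 0.304, Cxcr4 with 0.249 ± 0.122 and Ackr2 with 0.226 ± 0.106 CPM per kb. The kidney ranges of neighbours overlapped for Cxcr6 and Cx3cr1 (8.61 to 9.84 against 4.76 to 9.61), for Cx3cr1 and Ccr1, for Ccr1 and Cxcr3, for Cxcr3 and Ccr7, for Ccr7 and Ackr3, and for Cxcr4 and Ackr2. Only Ackr3, at 0.68 to 1.24, and Cxcr4, at 0.116 to 0.356, did not overlap. In non-cystic regions the order began with Cxcr6 at 0.886 ± 0.595, Ackr3 at 0.693 ± 0.266 and Cx3cr1 at 0.442 ± 0.156 CPM per kb, so the decoy receptor Ackr3 ranked above all but 1 of the signalling receptors there, though its kidney range overlapped those of Cxcr6, Cx3cr1 and Cxcr3. In F4/80-low regions the order began with Cxcr6 at 2.10 ± 1.29, Cx3cr1 at 1.79 ± 0.56 and Ackr3 at 0.669 ± 0.395 CPM per kb.

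The ligands of the 9 receptors were read from the same fit. Of 12 ligand genes 11 could be tested. A ligand could pass the filter through the region type in which it is high, so these counts are no test. In F4/80-high against non-cystic regions 10 rose and 1 fell, beside 19.7% higher and 19.5% lower over all tested genes. In F4/80-low against non-cystic regions 4 ligands rose and none fell, beside 1.51% and 0.0249% of all. In F4/80-high against F4/80-low regions 5 rose and 1 fell, beside 10.3% and 14.0% of all. The ligands were therefore called in F4/80-low regions for receptors that were not: Ccl6 (1.72 ± 0.32, adjusted p = 0.0355) and Ccl9 (2.49 ± 0.37, adjusted p = 0.0171) for Ccr1, Cxcl10 (4.64 ± 0.63, adjusted p = 0.0185) for Cxcr3 and Cxcl16 (1.33 ± 0.21, adjusted p = 0.0171) for Cxcr6. These 4 calls were lost in 13, 8, 10 and 4 of the 34 alternatives, each time including the fit without F4/80-low kidney 2 replicate 2. A call for a ligand and none for its receptor does not show that the 2 differ, and that difference was not tested.

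For Ccr1, all 5 ligands listed rose in F4/80-high against non-cystic regions. Ccl7 had the largest value of them, 8.75 ± 0.96 (adjusted p = 0.000799), from 0.0975 ± 0.169 to 49.9 ± 28.8 CPM (SD, n = 3). Its 4 counts in non-cystic regions came from 1 library. Ccl9 rose by 5.08 ± 0.38, Ccl6 by 4.97 ± 0.36, Ccl5 by 3.49 ± 0.65 (lost without kidney 2 or kidney 3) and Ccl3 by 3.27 ± 0.51. Ccl6 stood at 151.8 ± 121.7 CPM per kb and Ccl7 at 62.3 ± 36.0 CPM per kb in F4/80-high regions, beside 3.71 CPM per kb for Ccr1.

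Cx3cl1, which encodes fractalkine, also rose. It went from 24.8 ± 7.36 CPM in non-cystic to 69.4 ± 16.0 CPM in F4/80-high regions (SD, n = 3). Its log2 fold change was 1.50 ± 0.24 (adjusted p = 0.00135) beside 3.94 ± 0.26 for Cx3cr1. The difference between the 2 genes was not tested. In F4/80-low regions Cx3cl1 had 0.95 ± 0.24 and did not pass (adjusted p = 0.101).

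Of the ligands of Cxcr3, Cxcl10 had another order of mean levels over the regions than its receptor. Cxcl9 had the same order of means (0.0503, 1.57 and 3.00 CPM from non-cystic to F4/80-high), but not in every kidney. For Cxcl9, kidney 2 was lower in F4/80-high (1.39 CPM) than in F4/80-low regions (3.74 CPM). The library F4/80-low kidney 2 replicate 2 gave 56 of the 71 Cxcl9 counts of its region type. The difference of Cxcl9 between the cystic region types did not pass (1.47, adjusted p = 0.329). Nor did that of Cxcr3 between F4/80-low and non-cystic regions (0.40, adjusted p = 0.914). In CPM (mean ± SD, n = 3), Cxcl10 was at 34.2 ± 21.6 in F4/80-low, 9.46 ± 4.26 in F4/80-high and 1.32 ± 0.14 in non-cystic regions, while Cxcr3 had its highest level in F4/80-high regions. Cxcl10 was lower in F4/80-high than in F4/80-low regions in all 3 kidneys by sums, but the difference of -1.77 ± 0.54 did not pass (adjusted p = 0.0518), and 1 F4/80-low library reached 126.3 CPM against a median of 16.2. It passed as lower in 6 of the 34 alternatives (smallest adjusted p = 0.00128), and with the libraries labelled 1 alone it had the opposite sign (1.45, adjusted p = 0.0467). Cxcl9 rose by 5.84 ± 1.37 (adjusted p = 0.00916) in F4/80-high against non-cystic regions, and did not pass without kidney 1 or with the libraries labelled 2 alone. It had 2 counts in all non-cystic libraries and 171 in all F4/80-high libraries, a ratio of 56.5 (95% counting interval 15.4 to 470.2). The rise of Cxcl10 in the same comparison (2.87 ± 0.61, adjusted p = 0.00865) was lost without kidney 3 and without F4/80-low kidney 3 replicate 2. It was also lost without the filter and with the voom fit of the 18 libraries.

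Cxcl16, the ligand of Cxcr6, was the most abundant of the ligands in non-cystic regions, with 22.4 ± 4.42 CPM per kb, and had 55.7 ± 2.96 and 131.4 ± 8.85 CPM per kb in F4/80-low and F4/80-high regions (SD, n = 3). It rose in all 3 comparisons, by 2.57 ± 0.22 (adjusted p = 5.64e-05) in F4/80-high against non-cystic regions and by 1.24 ± 0.21 (adjusted p = 0.00374) against F4/80-low regions. Ccl19, a ligand of Ccr7, rose by 2.96 ± 0.77 (adjusted p = 0.0125) in F4/80-high against non-cystic regions. That call was lost without kidney 1 and with the libraries labelled 2 alone.

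Cxcl12, the ligand of Cxcr4 and Ackr3, was the ligand that fell. It had 37.5 ± 5.08, 46.6 ± 19.8 and 17.4 ± 1.64 CPM in non-cystic, F4/80-low and F4/80-high regions (SD, n = 3). Its difference was -1.12 ± 0.24 (adjusted p = 0.0057) in F4/80-high against non-cystic and -1.37 ± 0.24 (adjusted p = 0.00494) in F4/80-high against F4/80-low regions. Both calls were lost with scaling to total counts and with the libraries labelled 1 alone, the first also without F4/80-high kidney 3 replicate 2 and the second also without kidney 1.

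**Figure D3:**
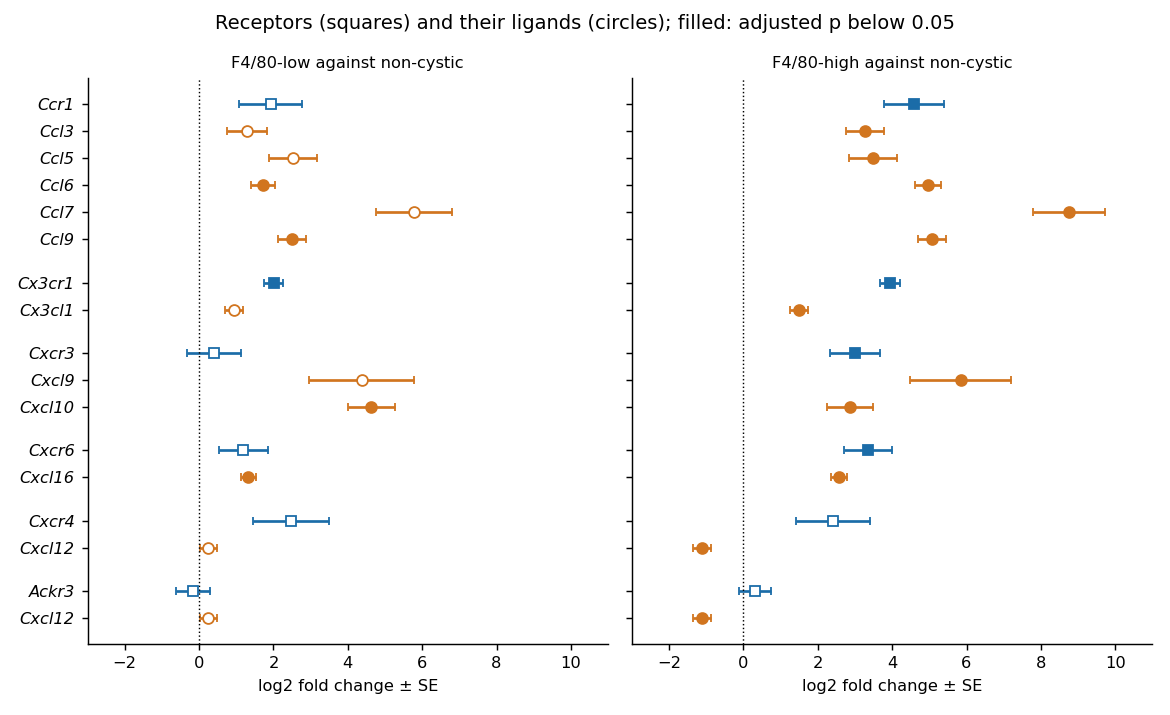
Log2 fold change (horizontal axis) with its standard error for 6 receptors (squares) and the ligands listed for each (circles), against non-cystic regions, with F4/80-low on the left and F4/80-high on the right. Filled symbols passed at an adjusted p below 0.05. In the right panel every ligand but Cxcl12, at -1.12, lies above 0.

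Other chemokine receptors were read as a list of 15, of which 7 could be tested. In F4/80-high against non-cystic regions 3 rose (Ccr2, Xcr1 and Gpr182) and 1 fell (Ackr4), beside 19.7% higher and 19.5% lower over all tested genes. Ccr2, the receptor of inflammatory monocytes, rose by 3.85 ± 0.19 (adjusted p = 8.84e-06). Ccr2 was also the 1 gene of the list called in F4/80-low against non-cystic regions (1.76 ± 0.18, adjusted p = 0.00239). That call was lost without kidney 1, with the voom fit of the 18 libraries and with the libraries labelled 1 or 2 alone. The calls of Xcr1 (2.62 ± 0.63) and Gpr182 (1.48 ± 0.46) in F4/80-high regions were lost without kidney 1 and with the libraries labelled 2 alone. That of Xcr1 was also lost without kidney 2. That of Gpr182 was also lost without non-cystic kidney 2 replicate 1, F4/80-high kidney 1 replicate 2 or F4/80-high kidney 3 replicate 1. The decoy receptor Ackr4, which clears CCL19 and CCL21, fell by 1.97 on the log2 scale (SE 0.35, adjusted p = 0.00246) in F4/80-high against non-cystic regions, from 19.7 ± 2.44 to 5.13 ± 2.46 CPM (SD, n = 3). In non-cystic regions Ackr4 had 3.66 ± 0.45 CPM per kb, above each of the 9 receptors followed here.

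Of 20 genes of receptor signalling, all tested, 13 rose and 1 fell in F4/80-high against non-cystic regions, 10 rose and 1 fell against F4/80-low regions, and 1 rose in F4/80-low against non-cystic regions. In the first of these, 19.7% of all tested genes were called higher and 19.5% lower. The median log2 fold change of this list was 0.92 there, beside 0.04 over all tested genes. The haematopoietic Rac2 (3.54 ± 0.22) and Dock2 (3.12 ± 0.37), which drive actin assembly at the leading edge of a moving leukocyte, and Pik3cg (3.77 ± 0.66) were among those that rose. Of 25 further chemokines, 21 were tested, and 15 rose and 1 fell in F4/80-high against non-cystic regions. Ccl2, a ligand of Ccr2, rose there by 6.18 ± 0.32 (adjusted p = 8.84e-06).

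Markers of most cell types known to carry the called receptors were also highest in F4/80-high regions. The 12 macrophage markers include Adgre1, the gene of F4/80. The regions were picked by F4/80, so the higher level of these markers is not a finding. None of the 12 was at 0 in any region type, and their summed level was 113.8 to 184.2, 228 to 815.4 and 2260 to 6527 CPM in non-cystic, F4/80-low and F4/80-high libraries. The 8 monocyte markers, which include Ccr2, summed to 27.3 to 36.8, 36.6 to 165.6 and 218 to 411.3 CPM. The 14 T and NK cell markers summed to 6.14 to 20.1, 11.3 to 39.8 and 74.2 to 123 CPM, and the 10 dendritic cell markers, which include Xcr1, to 9.88 to 22.9, 19.6 to 39.7 and 70.4 to 119.6 CPM. The neutrophil sum was 0 to 11.9, 0 to 8.59 and 0.918 to 33.0 CPM, with Camp and Ngp at 0 in non-cystic and F4/80-low regions. In F4/80-high against non-cystic regions 11 of 12 macrophage markers, 6 of 8 monocyte markers, 9 of 10 dendritic cell markers, 11 of 13 tested T and NK cell markers and 1 of 3 tested neutrophil markers rose. Over all tested genes, 19.7% rose in that comparison. For Ackr3, whose level was not called, the 8 fibroblast and pericyte markers summed to 65.5 to 118.9, 208.8 to 574.1 and 698.1 to 2054 CPM, and 7 of 7 tested rose in that comparison. The 9 blood vessel markers summed to 202.3 to 333.2, 221.1 to 515.2 and 150.5 to 621.3 CPM, and 1 of 9 rose. Their part in the receptor differences was not tested.

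The called receptors were also set against the summed markers within each kidney. These ratios were chosen after the values were seen and carry no test. In the order non-cystic, F4/80-low, F4/80-high, Cx3cr1 was 1.37 ± 0.50%, 1.67 ± 0.55% and 0.947 ± 0.281% of the macrophage sum (SD, n = 3). From F4/80-low to F4/80-high regions it was lower in all 3 kidneys (2.20 to 1.27%, 1.1 to 0.844% and 1.72 to 0.733%). A sum follows its most abundant markers, and single markers differ. In mean CPM of the same regions, C1qb went from 107 to 570.1 and Csf1r from 26.5 to 72.2, beside 8.07 to 31.3 for Cx3cr1. Set against C1qb alone Cx3cr1 would also be lower, and against Csf1r alone it would be higher. These percents are therefore not a level per macrophage. Ccr1 was 0.236 ± 0.204%, 0.287 ± 0.047% and 0.257 ± 0.098% of the macrophage sum. Cxcr3 was 4.43 ± 3.60%, 2.69 ± 1.32% and 4.31 ± 0.95% of the T and NK cell sum. Cxcr6 was 11.8 ± 5.45%, 15.1 ± 6.18% and 18.9 ± 0.64% of the same sum. All of these ranges overlapped between non-cystic and F4/80-high regions except that of Cxcr6. Its kidneys had 13.3, 16.3 and 5.75% in non-cystic, 12.2, 11 and 22.2% in F4/80-low and 18.2, 19.5 and 19.0% in F4/80-high regions. The highest of these percents was thus in F4/80-low kidney 3. In F4/80-high against non-cystic regions Il7r (5.47) and Cd3g (3.53) rose by more than Cxcr6 (3.35). Nkg7 (3.03) and Trac (2.89) rose by less. The percents of Cxcr6 are therefore not a level per T or NK cell. Against the monocyte sum, Ccr1 had 7.25% in F4/80-high kidney 3 and 1.80 and 2.07% in the other 2 F4/80-high kidneys.

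**Figure D4:**
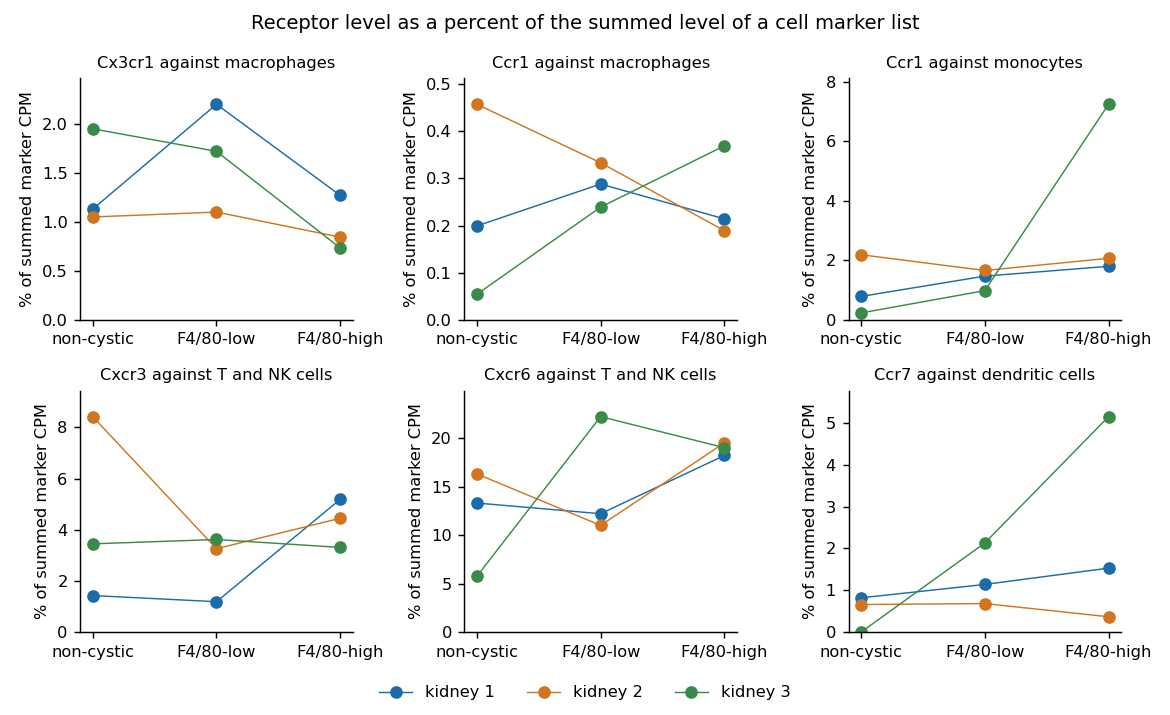
Receptor level as a percent of the summed CPM of a marker list (vertical axis, linear from 0, a separate range per panel) in each kidney by region type. Points joined by a line are the 3 region types of 1 kidney. Cxcr6 against the T and NK cell sum lies at 18.2 to 19.5% in F4/80-high regions and reaches 22.2% in F4/80-low kidney 3. Ccr1 against the monocyte sum is highest in F4/80-high kidney 3.

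Genes whose level followed a receptor most closely over the 18 libraries were found by Pearson's r of log2 CPM among 8575 genes of higher level. For Cx3cr1 they were Abca1 (r = 0.964), Ptprc (0.960) and Apobec1 (0.959), and for Ccr1 Rras (0.945), Zfp36l1 (0.942) and Efhd2 (0.933). For Cxcr6 they were Rab32 (0.934), Cd52 (0.912) and Il2rg (0.912), and for Cxcr3 Mmd (0.903), Tesk1 (0.880) and Pycard (0.876). The best matches of the receptors that were not called were Wls for Ackr3 (0.807), Cd81 for Cxcr4 (0.828) and Fundc1 for Ackr2 (0.826). Each match was picked as the highest of 8575 values over 18 libraries, so a high r can come from the picking alone. No r was tested, and Cxcr4 had at most 10 counts in a library. The libraries share 3 region types and 3 kidneys, so r includes the differences between region types. After subtracting the region means it was 0.837 for Cx3cr1 with Abca1, 0.824 for Ccr1 with Rras, 0.691 for Cxcr6 with Rab32 and 0.700 for Cxcr3 with Mmd. For the receptors not called it was 0.850 (Ackr3 with Wls), 0.778 (Cxcr4 with Cd81) and 0.805 (Ackr2 with Fundc1), each above the values of Cxcr6 and Cxcr3.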

How the data were processed

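RNA sequencing libraries from microdissected kidney regions were analysed from the deposited table of raw counts per gene, which the authors had not normalized. Per the labels, the library kit was one for low input, which keeps no strand. The submitters' processing notes list HTSeq 0.11.0, fastp 0.20.1 and FastQC 0.11.9 and the assembly GRCm38 (mm10), with no roles. Which aligner was used, and how strand was set in counting, is not given in the sources used here. Gene names and exon lengths came from GENCODE M21, and 32158 identifiers matched a symbol.

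For each kidney and region type, its 2 libraries were added up. The 9 sums were fitted with edgeR 4.0.16 in R 4.3.3 (filterByExpr, trimmed mean of M values, robust quasi-likelihood test, region type with kidney as block, 4 residual degrees of freedom), and p-values were adjusted by Benjamini-Hochberg over all 16034 tested genes. The SE is the size of the log2 fold change divided by the root of its F statistic. The fit was tested on simulated counts. The kidney block rests on the labels. Libraries of 1 kidney from different region types deviated together only weakly (median correlation 0.066, beside -0.0254 for libraries of different kidneys). In none of the 9 pairs of libraries from 1 kidney and region type did the counts agree within sampling noise. Each p-value sets a difference between region types against the residual spread of the 9 sums from these 3 kidneys. The block takes out each kidney's own level. The fit draws each gene's spread towards that of other genes. At few counts, counting error limits precision in addition to the spread between libraries and kidneys. Reads carry no molecular identifiers. Promoter sequences came from RefSeq. All 9 receptors are named, all genes of the ligand and receptor lists could be, and of the other lists up to 4 genes with the smallest p. C1qb and Csf1r are named besides, to show how markers of the macrophage sum differ. The list of 15 other chemokine receptors is not complete. The genes and lists were chosen with earlier results of these data known. The alternatives were other scalings (DESeq2 1.42.0 size factors, upper quartile, total counts), other filters, the DESeq2 Wald test, library-level fits (limma 3.58.1 for voom), fits without the block or with fewer region types, and leaving out libraries and kidneys.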

Additional observations from a re-analysis of the deposited data

Results flagged for a closer look

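In 24 sets of 6 libraries (a receptor in a region type), the highest or lowest CPM, without logs, was set against Dixon's criterion. For normally distributed values it flags about 1 set in 20 by chance, and skewed values at few counts can be flagged more often. By this rule 4 sets held a library far from the others. Ccr1 had 38.31 CPM in F4/80-high kidney 3 replicate 2, with the next library at 9.13 CPM. That library also had the highest macrophage sum (6527 CPM) and monocyte sum (411.3 CPM) of the 18. Cx3cr1 had 1.888 CPM in F4/80-low kidney 2 replicate 1, with the next at 7.93 CPM, and without it the F4/80-low against non-cystic difference was 2.28 (adjusted p = 0.00827). Ackr2 had 3.037 CPM in non-cystic kidney 3 replicate 1, with the next at 0.863 CPM, and 1.197 CPM in F4/80-low kidney 1 replicate 1, with the next at 0.15 CPM. The cause of these values was not tested.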

How the results depend on the processing

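Each value was recomputed under up to 34 alternatives. The count of receptors called in F4/80-high against non-cystic regions, 4, stayed between 3 and 5. In F4/80-low against non-cystic regions the count of 1 became 0 with voom and with either set of library labels alone, and ran from 0 to 1 when a library or kidney was left out, with 0 without F4/80-low kidney 2 replicate 2 and without kidney 1. In F4/80-high against F4/80-low regions the count of 4 became 2 with the libraries labelled 1 alone and 2 with those labelled 2 alone, and ran from 1 (without kidney 1) to 4, with 2 without kidney 2. With the replicate number and kidney as a block over 18 libraries, the counts were 1, 4 and 4. Within a kidney, the difference between the 2 libraries of a region type correlated with that of another region type at -0.0945 to 0.114. Whether same-numbered libraries go together across kidneys was not tested. The ligands called in F4/80-low regions, 4, became 6 with this block. Scaling to total counts moved the median log2 fold change of all genes in F4/80-high against non-cystic regions from 0.04 to 0.65 and the calls from 3156 higher and 3133 lower to 6608 and 1463. Without kidney 1 those calls were 1737 and 1622, and without F4/80-low kidney 2 replicate 2 the higher calls in F4/80-low regions fell from 242 to 31. The DESeq2 test gave 601 there. The cause was not tested.

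Signs turned only for values that did not pass. When a library or kidney was left out, the F4/80-low against non-cystic values ran from -0.512 to 1.391 for Cxcr3, from -0.7233 to 0.2998 for Ackr3 and from -0.09454 to 0.6011 for Cxcl12. Those of F4/80-high against non-cystic regions ran from -0.9469 to 0.1775 for Ackr2 and from -0.005196 to 0.7432 for Ackr3. Between the cystic region types the ranges were -0.7595 to 0.8322 for Cxcr4 and -0.1874 to 0.461 for Gpr182. With the libraries labelled 2 alone, Cxcr3 (F4/80-low against non-cystic) became -1.001 and Cxcl9 (between cystic types) -0.0223. With those labelled 1 alone, Ackr3 (F4/80-low against non-cystic) became 0.2819 and Cxcl10 (between cystic types) 1.452. Total counts gave 0.2583 for Ackr2 (F4/80-high against non-cystic) and 0.4068 for Cxcr4 (between cystic types), and upper quartile factors 0.05074 for the latter. Receptors with few counts limit what can be read: Cxcr4 and Ackr2 had too few to be tested in 9 or 10 of the alternatives.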
